A study of Mus musculus with 5 samples.

Results

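Interleukin-1 receptor and NF-kB genes were followed in LSK cells, which are mouse bone marrow cells sorted as Lin-, Sca1+ and cKit+ and include the haematopoietic stem cells and the earliest progenitors. The 10 genes, out of 24399 in the deposited table, were chosen by their role in the pathway and by no threshold on these data, though with earlier results of them known: the receptor chains Il1r1 and Il1rap, the adaptor Myd88, the NF-kB factors Nfkb1, Nfkb2, Rela and Relb, and the feedback inhibitors Nfkbia, Tnfaip3 and Irak3. All 10 were found and all 10 passed the filter on low counts. The study compared the transcriptome of these cells between C57BL/6 mice of a germ line knockout line and wild-type mice, at 12 months of age. There were 3 libraries titled KO, whose genotype field gives a heterozygous genotype, and 2 libraries titled WT, given as wild type. The title and the genotype field of the first group do not match, so these libraries are called KO-labelled.

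Interleukin-1 binds the ligand-binding chain Il1r1, which recruits the accessory chain Il1rap. The joined intracellular domains bind the adaptor Myd88, and kinases of the IRAK family carry the signal to the IKK kinase complex. That complex marks the inhibitor encoded by Nfkbia for destruction and so frees the NF-kB dimers built from Rel family subunits, which turn on inflammatory and survival genes, including those of their own inhibitors. In bone marrow, interleukin-1 is known to push haematopoietic stem cells towards myeloid output.

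Total counts, with 1 transcript row kept per gene, ran from 36060320 to 39691066 in the KO-labelled libraries and were 29964556 and 38674416 in the WT libraries. The unit of levels is CPM, the read count relative to the TMM-scaled library size, shown per library or as mean ± SD with n = 3 KO-labelled and n = 2 WT. Fold changes are KO-labelled over WT on the log2 scale, with the standard error (SE), and p-values come from the quasi-likelihood test of edgeR with Benjamini-Hochberg adjustment over all 14565 genes tested. Whether each library is a separate animal is not in the labels, and the spread behind the p-values may therefore be technical. The stem cell surface genes of the sort were abundant: Kit averaged 1119 ± 29.6 CPM in KO-labelled libraries and 1216 ± 15.5 CPM in WT libraries, and Ly6a, a gene of the Sca1 locus, 97.4 ± 7.04 and 78.4 ± 5.03 CPM. In bulk RNA, fewer cells of a type and less RNA per cell cannot be told apart.

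Of the 10 genes, the interleukin-1 receptor Il1r1 fell in the KO-labelled libraries and no other passed the test. The ligand-binding chain was read at 61.1, 84.2 and 62.4 CPM in KO-labelled libraries 1 to 3, against 105 and 108 CPM in WT libraries 1 and 2. The groups did not overlap, and KO-labelled library 2 stood nearest to WT. Il1r1 averaged 69.3 ± 13.0 CPM in KO-labelled libraries and 107 ± 2.51 CPM in WT libraries, a log2 fold change of -0.62 ± 0.13 (SE), or 1.54-fold lower (adjusted p = 0.0292, edgeR). This 1 call among 10 genes stands against 1.97% of all tested genes called in either direction, 1.18% lower and 0.79% higher. At an unadjusted p under 0.05, 2 of the 10 were higher and 3 lower, and 13.8% of all tested genes passed in either direction. DESeq2 called 1 of the 10, against 3.95% of all genes it tested, and limma voom with sample weights called 3, against 4.28%.

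The call of Il1r1 rested on several libraries, although its direction held in every alternative run. Without KO-labelled library 3 the log2 fold change was -0.55 (adjusted p = 0.146), without WT library 1 it was -0.64 (adjusted p = 0.387) and without WT library 2 it was -0.60 (adjusted p = 0.351). Without KO-labelled library 2 it was -0.79 (adjusted p = 0.00234). With the replicate number as a block it was -0.57 (adjusted p = 0.0605), and with transcript rows summed it was -0.62 (adjusted p = 0.0647). The count of all called genes moved as well, from 287 with all libraries to 6 without WT library 1 and 18 without WT library 2. Both transcript rows of Il1r1 carried nearly the same reads, the second holding 99.7% to 100% of the first in each library, so they are not separate measurements.

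**Figure D1:**
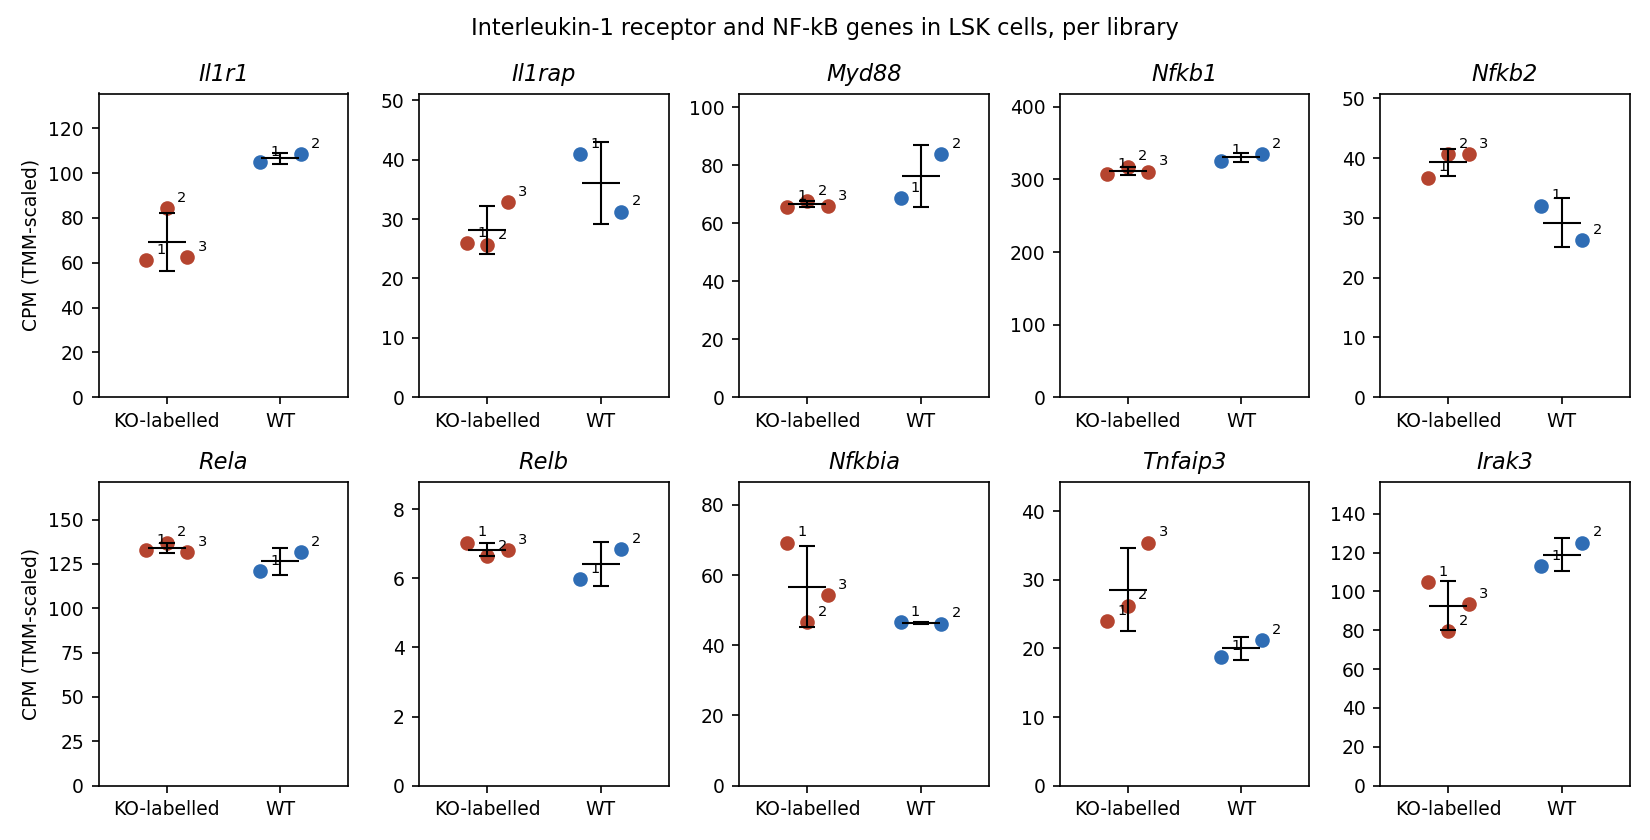
CPM of each of the 10 genes by library, with KO-labelled on the left and WT on the right of each panel; points are libraries, numbered by replicate, and bars are the mean ± SD. Il1r1 lay at 61.1 to 84.2 CPM in the KO-labelled libraries and at 105 and 108 CPM in WT, while Nfkb1, Rela and Relb lay close together in both groups.

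Il1rap, the accessory chain without which Il1r1 cannot signal, was read at 25.9, 25.6 and 32.9 CPM in KO-labelled libraries 1 to 3, against 40.9 and 31.2 CPM in WT libraries 1 and 2. The groups overlapped, since KO-labelled library 3 lay above WT library 2. Its log2 fold change was -0.36 ± 0.16 (SE, adjusted p = 0.353, edgeR). Il1rap is the 1 gene of the 10 whose transcript rows differed widely: the shortest, NM_134103, held 31.0% to 31.9% of the reads of the kept row, NM_008364, in the KO-labelled and 34.3% and 32.2% in WT libraries 1 and 2. These rows share reads, so they do not give the share of each isoform. Per kilobase of transcript, Il1r1 was read at 2.20, 3.07 and 1.78 times the level of Il1rap in KO-labelled libraries 1 to 3, against 2.40 and 3.25 times in WT libraries 1 and 2, and this ratio of the receptor chains overlapped between the groups.

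Myd88, the adaptor that couples interleukin-1 and Toll-like receptors to the IRAK kinases, was read at 65.7, 67.6 and 66.0 CPM in the KO-labelled libraries, against 68.6 and 83.8 CPM in the WT libraries. The 3 KO-labelled values lay within 2 CPM of each other and just under WT library 1, while WT library 2 stood well above. Its log2 fold change was -0.20 ± 0.11 (SE, adjusted p = 0.462, edgeR), -0.33 without WT library 1 and -0.04 without WT library 2.

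Of the 4 NF-kB factors 0 passed over all genes in edgeR or DESeq2, 1 passed in limma voom (Nfkb2), and 1 had an unadjusted p under 0.05 in edgeR. Nfkb1 encodes p105, the precursor of the p50 subunit of the canonical dimer, and was the most abundant of the 10, at 307, 318 and 311 CPM in KO-labelled libraries 1 to 3, against 326 and 335 CPM in WT libraries 1 and 2. The groups did not overlap, but the distance between them was small, a log2 fold change of -0.08 ± 0.08 (SE, adjusted p = 0.700, edgeR). Rela, the p65 subunit that activates transcription, averaged 134 ± 2.72 CPM in KO-labelled libraries and 126 ± 7.57 CPM in WT libraries (log2 fold change 0.08 ± 0.09, adjusted p = 0.753, edgeR). Relb, the partner of p52 in the noncanonical dimer, was the least abundant, at 6.83 ± 0.190 CPM in KO-labelled libraries and 6.41 ± 0.626 CPM in WT libraries (0.09 ± 0.25, adjusted p = 0.925, edgeR). The values of Rela and Relb overlapped between the groups.

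Nfkb2 encodes p100, the precursor of p52, which also acts as an inhibitor until it is processed. It was read at 36.7, 40.6 and 40.6 CPM in KO-labelled libraries 1 to 3, against 32.1 and 26.3 CPM in WT libraries 1 and 2. Every KO-labelled library lay above both WT libraries. The log2 fold change of 0.43 ± 0.14 (SE) missed the threshold over all genes (unadjusted p = 0.00775, adjusted p = 0.161, edgeR), but passed with limma voom and sample weights (0.48, adjusted p = 0.0322) and without KO-labelled library 1 (0.48, adjusted p = 0.0463). Per kilobase, Nfkb1 was 6.05, 5.66 and 5.54 times as abundant as Nfkb2 in KO-labelled libraries 1 to 3, against 7.36 and 9.22 times in WT libraries 1 and 2, so that this ratio did not overlap between the groups, as was the case for Nfkb2 itself. Psd, a protein-coding gene, overlaps Nfkb2 in the GRCm38.p6 annotation, and strand use in the counting is not given in the sources used here.

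Of the 3 feedback inhibitors 0 passed over all genes in edgeR or DESeq2, 1 passed in limma voom (Irak3), and 2 had an unadjusted p under 0.05 in edgeR. Nfkbia encodes the inhibitor that holds NF-kB dimers in the cytoplasm and is itself turned on by them. It was read at 69.2, 46.7 and 54.3 CPM in KO-labelled libraries 1 to 3, against 46.5 and 46.1 CPM in WT libraries 1 and 2. KO-labelled library 1 was the high value and KO-labelled library 2 lay almost level with WT (log2 fold change 0.29 ± 0.15, adjusted p = 0.420, edgeR; 0.12 without KO-labelled library 1).

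Tnfaip3 encodes A20, a ubiquitin-editing enzyme that shuts off signalling upstream of IKK. It was read at 23.9, 26.2 and 35.4 CPM in KO-labelled libraries 1 to 3, against 18.8 and 21.2 CPM in WT libraries 1 and 2. Here KO-labelled library 3 was the high value, and the groups did not overlap. Its log2 fold change of 0.51 ± 0.18 (SE) missed the threshold over all genes (adjusted p = 0.216, edgeR) and was 0.33 without KO-labelled library 3, but passed without KO-labelled library 1 (0.62, adjusted p = 0.0369).

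Irak3 encodes IRAK-M, an IRAK family member that restrains signalling from Myd88. Its values were lower in the KO-labelled libraries, at 105, 79.7 and 93.3 CPM in libraries 1 to 3, against 113 and 125 CPM in WT libraries 1 and 2. The groups did not overlap, and KO-labelled library 1 lay nearest to WT. The log2 fold change of -0.36 ± 0.12 (SE) missed the threshold over all genes (unadjusted p = 0.00823, adjusted p = 0.166, edgeR), but passed with limma voom and sample weights (-0.42, adjusted p = 0.0143) and without KO-labelled library 1 (-0.46, adjusted p = 0.00729).

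**Figure D2:**
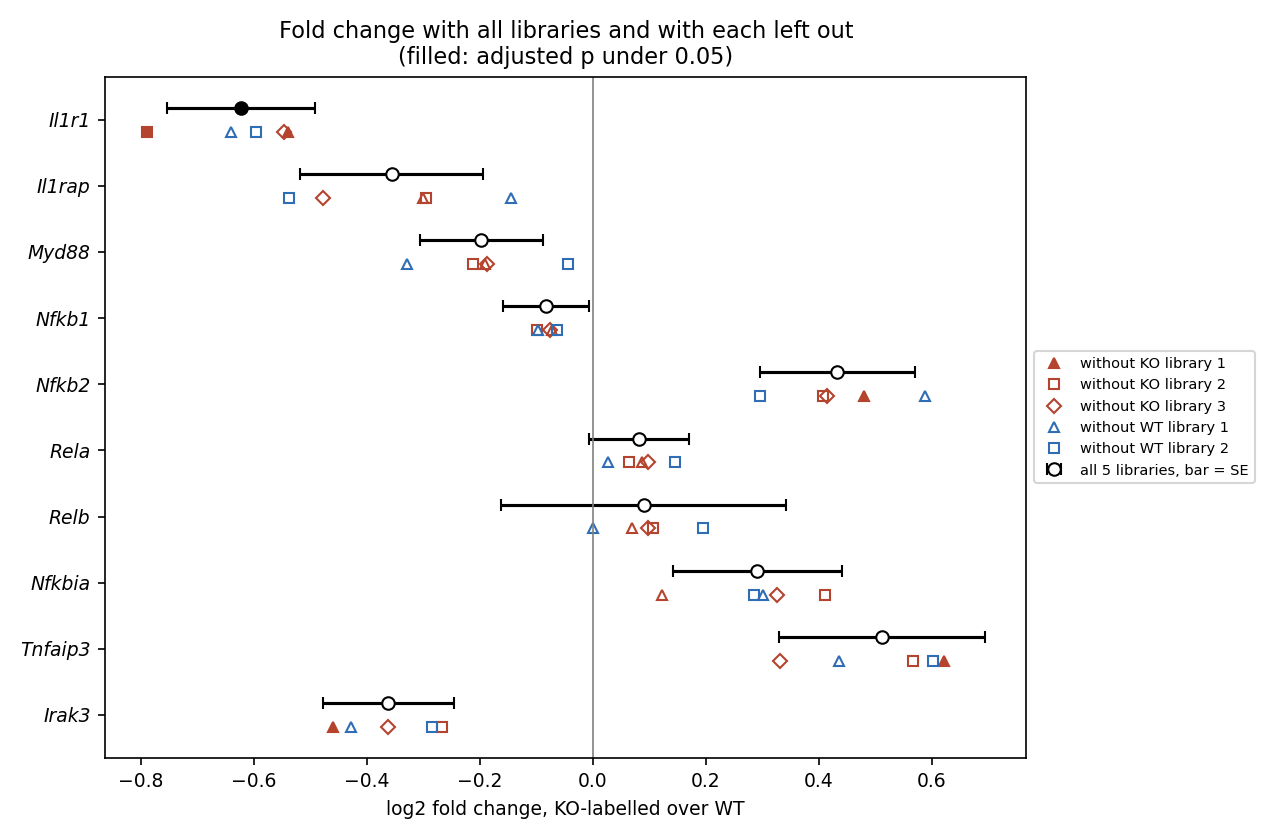
Log2 fold change, KO-labelled over WT, of each of the 10 genes, with all 5 libraries (circles, bars are SE) and with each library left out in turn; filled symbols have an adjusted p under 0.05. Il1r1 stayed between -0.79 and -0.54, and Irak3, Nfkb2 and Tnfaip3 passed the test only where KO-labelled library 1 was left out, among the fits drawn.

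Across the 10 genes, 3 were higher in every KO-labelled library than in both WT libraries (Nfkb2, Nfkbia and Tnfaip3), 4 were lower in every one (Il1r1, Myd88, Nfkb1 and Irak3) and 3 overlapped. Over all tested genes, 32.8% separated the groups in this way, 16.5% upwards and 16.3% downwards. The median log2 fold change of the 10 was -0.0005, beside 0.001 for all tested genes. Without KO-labelled library 1, 4 of the 10 passed the test, 2 higher and 2 lower, while 675 of all genes did. Over all tested genes, log2 CPM of KO-labelled library 1 correlated at 0.965 and 0.9646 with KO-labelled libraries 2 and 3. Those 2 correlated at 0.9802 with each other, and at 0.9733 and 0.9708 with WT library 2. WT library 2 correlated less with WT library 1, at 0.9694. WT library 1 correlated at 0.9525, 0.9659 and 0.9629 with KO-labelled libraries 1 to 3. The 2 WT libraries were thus not the closest to each other.

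Compared per kilobase of transcript, the order of the levels was nearly the same in both groups. In the KO-labelled libraries it ran Nfkb1 (75.8 CPM per kilobase), Rela (49.3), Nfkbia (35.9), Myd88 (33.9), Irak3 (29.9), Il1r1 (14.3), Nfkb2 (13.2), Tnfaip3 (6.45), Il1rap (6.23) and Relb (3.11). In WT libraries it ran Nfkb1 (80.2 CPM per kilobase), Rela (46.6), Myd88 (38.9), Irak3 (38.4), Nfkbia (29.4), Il1r1 (22.1), Nfkb2 (9.79), Il1rap (7.98), Tnfaip3 (4.52) and Relb (2.91). Neighbours whose ranges over the libraries overlapped were Nfkbia with Myd88, Myd88 with Irak3, Il1r1 with Nfkb2 and Tnfaip3 with Il1rap in the KO-labelled libraries, and Myd88 with Irak3 and Nfkb2 with Il1rap in WT. The canonical subunits thus led the order, and the receptor chains and Relb stood in its lower part.

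NF-kB dimers bind kappaB sites, and several inhibitor genes carry such sites close to their start. The kappaB consensus, 10 bases long and searched on both strands in the 250 bases before each RefSeq start, matched in 4 of the 8 genes that have a window: Il1r1, Tnfaip3, Nfkbia and Nfkb2. Nfkb1 and Relb had no window. Of all 27025 genes with a window, 4.46% had a match in at least 1, and of all 32851 windows, 3.90% did. The 10 genes were chosen for their role in this pathway, so setting them beside these shares is not a test. Nfkb2, Nfkbia and Tnfaip3 are the 3 genes whose KO-labelled values lay above both WT values, although these 3 did not pass in edgeR. For each of them 1 window is shown, with the matching window of Il1r1, the gene that passed the test. Matches are in capitals, which merge where matches overlap, and sequences are from RefSeq on GRCm38.p6, 5′ to 3′ on the strand of the gene, ending at the base before the start.
Nfkbia, chr12:55492648-55492897, minus strand: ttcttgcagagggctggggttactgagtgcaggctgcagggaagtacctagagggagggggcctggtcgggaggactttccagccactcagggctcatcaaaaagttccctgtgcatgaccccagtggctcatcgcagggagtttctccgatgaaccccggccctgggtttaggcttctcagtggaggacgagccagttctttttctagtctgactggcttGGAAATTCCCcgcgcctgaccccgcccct
Tnfaip3, chr10:19015411-19015660, minus strand: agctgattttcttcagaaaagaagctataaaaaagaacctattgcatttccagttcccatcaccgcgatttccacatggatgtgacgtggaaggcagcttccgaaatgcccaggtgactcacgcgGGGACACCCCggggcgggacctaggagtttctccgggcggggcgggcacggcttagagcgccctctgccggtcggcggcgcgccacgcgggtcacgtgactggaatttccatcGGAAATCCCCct
Nfkb2, chr19:46304487-46304736, plus strand: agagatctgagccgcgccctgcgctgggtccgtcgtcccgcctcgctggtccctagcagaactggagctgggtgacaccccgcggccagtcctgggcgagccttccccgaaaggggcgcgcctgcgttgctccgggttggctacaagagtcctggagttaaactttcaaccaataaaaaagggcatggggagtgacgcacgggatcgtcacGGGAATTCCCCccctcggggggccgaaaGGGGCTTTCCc
Il1r1, chr1:40266336-40266585, plus strand: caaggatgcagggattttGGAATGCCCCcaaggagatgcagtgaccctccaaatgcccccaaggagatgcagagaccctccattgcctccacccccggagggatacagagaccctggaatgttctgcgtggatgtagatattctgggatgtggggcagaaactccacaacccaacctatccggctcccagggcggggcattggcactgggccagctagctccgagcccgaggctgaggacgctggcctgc
The match of Nfkbia lay 29 to 20 bases before the start, the nearer of the 2 in Tnfaip3 12 to 3 bases before it, and those of this Nfkb2 window 39 to 29 and 11 to 2 bases before it. That of Il1r1 lay further out, 232 to 223 bases before the start, in 1 of its 2 windows. Nfkb2 also had a match in each of its other 2 windows. The windows of Myd88, Irak3, Il1rap and Rela held no match. A match is a description of the sequence, and binding was not measured.

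Il1r1 lies in a cluster of 6 receptor genes of the interleukin-1 family, in the order Il1r2, Il1r1, Il1rl2, Il1rl1, Il18r1 and Il18rap, and the 2 that passed the test did so in opposite directions. Il1rl1, which encodes the interleukin-33 receptor ST2, rose 2.07-fold, with 11.5, 10.2 and 12.7 CPM in KO-labelled libraries 1 to 3, against 6.30 and 4.81 CPM in WT libraries 1 and 2 (log2 fold change 1.05 ± 0.24, adjusted p = 0.0469, edgeR). It lost its call without KO-labelled library 2 or 3 or either WT library, and under the replicate block (adjusted p = 0.157), and its adjusted p ran from 0.0237 to 0.395 over the fits with a library left out. Il18rap, the accessory chain of the interleukin-18 receptor and the most abundant gene of the ligand and receptor list, was read at 94.2, 114 and 78.5 CPM in KO-labelled libraries 1 to 3, against 122 and 126 CPM in WT libraries 1 and 2 (log2 fold change -0.37 ± 0.13, adjusted p = 0.217, edgeR). As in Il1r1, KO-labelled library 2 was the highest of its group. The log2 fold change of Il18r1, the ligand-binding chain of that receptor, was 0.45 ± 0.21 (SE, adjusted p = 0.385, edgeR), and that of Il1rl2, the interleukin-36 receptor, was -0.51 ± 0.23 (SE, adjusted p = 0.361, edgeR). The decoy receptor Il1r2 was the least abundant of the 6, with 18 to 62 counts per library, at 1.01 to 1.52 CPM in KO-labelled libraries and 0.600 and 1.59 CPM in WT libraries.

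**Figure D3:**
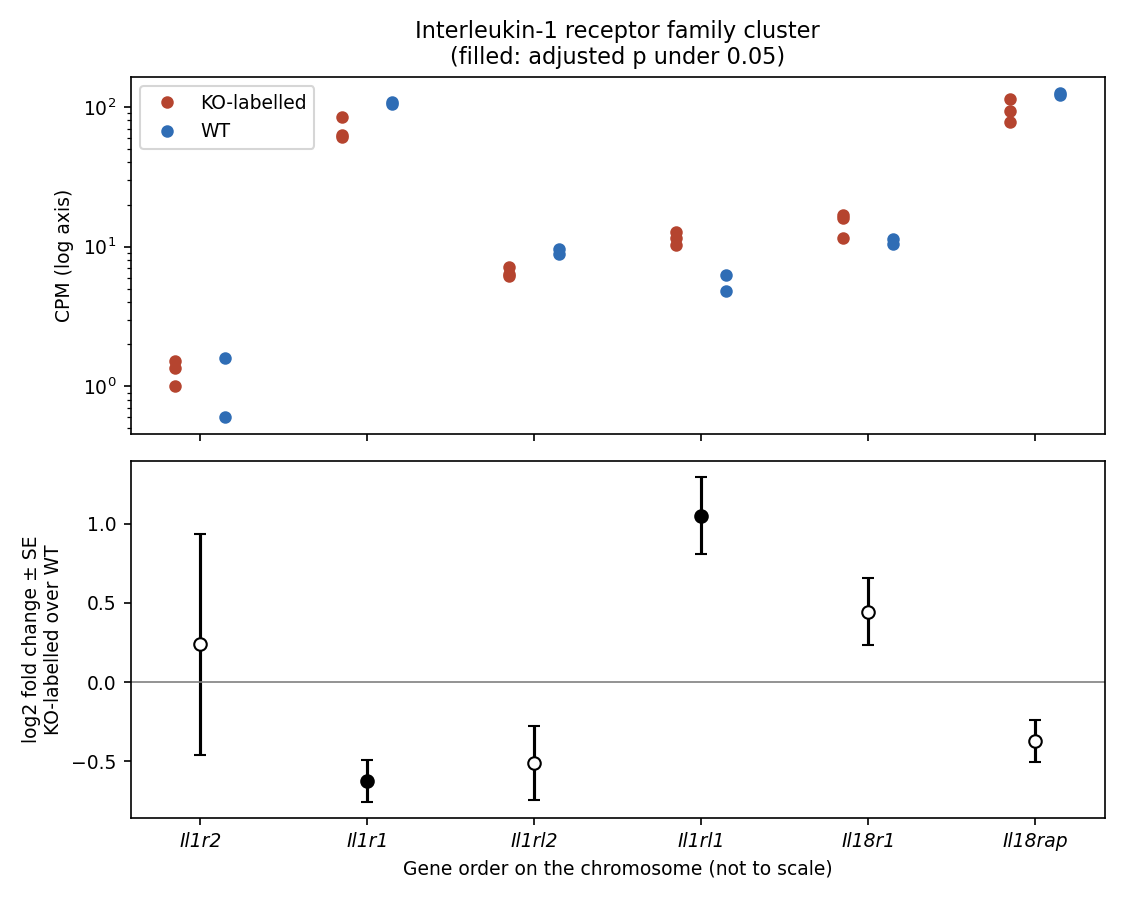
Receptor genes around Il1r1 in chromosomal order. The upper panel gives CPM per library on a log axis, KO-labelled left of WT, and the lower panel the log2 fold change, KO-labelled over WT, ± SE, filled where the adjusted p is under 0.05. Il1r1 (-0.62) and Il1rl1 (1.05) passed the test in opposite directions.

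The rest of the pathway was described with 7 lists. Among 10 tested ligands and other receptors of the family, Il1rl1 was the 1 gene that passed (median log2 fold change -0.20, beside 0.001 for all tested genes). The ligand Il1b averaged 0.347 ± 0.243 CPM in KO-labelled libraries and 0.476 ± 0.601 CPM in WT libraries, and the ligands Il1a and Il33 did not pass the count filter. Of 17 genes of IRAK, TRAF and TAK1 signalling 0 passed in edgeR, in DESeq2 or in limma voom, and 0 had an unadjusted p under 0.05 (median 0.03). The most abundant of them, Tab2, an adaptor of the kinase TAK1, averaged 272 ± 17.6 CPM in KO-labelled libraries and 255 ± 2.25 CPM in WT libraries. Of 14 genes of the IKK complex and the noncanonical arm 0 passed by any of these tools, and 1 had an unadjusted p under 0.05 (median -0.07). That gene, the IKK kinase Ikbkb, was lower (log2 fold change -0.33 ± 0.11, SE, adjusted p = 0.180, edgeR). It was named after its values were seen. Without overlap between the groups, 0 of the 14 were higher and 5 were lower, beside 16.5% and 16.3% of all tested genes. Cul1, a scaffold of the ubiquitin ligase that acts on phosphorylated IkB, was the most abundant, at 228 ± 3.65 CPM in KO-labelled libraries and 229 ± 8.77 CPM in WT libraries.

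Of 8 other Rel and IkB genes 0 passed in edgeR, 2 were higher and 1 lower at an unadjusted p under 0.05, and the median was 0.22. Without overlap between the groups, 5 of the 8 were higher and 1 was lower, beside 16.5% and 16.3% of all tested genes. The 2 higher by unadjusted p were Nfkbib (log2 fold change 0.38 ± 0.17, SE) and Nfkbiz (0.73 ± 0.31), both named after their values were seen. DESeq2 and limma voom each called 1 lower, Bcl3, a nuclear IkB protein that binds p50 and p52 (named after its values were seen). Bcl3 was read at 16.2, 18.1 and 12.6 CPM in KO-labelled libraries 1 to 3, against 22.8 and 31.0 CPM in WT libraries 1 and 2, and its adjusted p was 0.0638 in edgeR, 0.0158 in DESeq2 and 0.00663 in limma voom. The groups did not overlap for Bcl3. The most abundant gene of this list, Nkiras1, an inhibitor of IkB degradation, averaged 57.7 ± 7.45 CPM in KO-labelled libraries and 50.5 ± 1.45 CPM in WT libraries.

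Among 14 other feedback inhibitors 1 fell and 0 rose (median 0.14). This was Socs3, which is best known for blocking cytokine receptor signalling through JAK and STAT: it was read at 9.16, 7.47 and 7.17 CPM in KO-labelled libraries 1 to 3, against 27.9 and 37.5 CPM in WT libraries 1 and 2. It was 4.13-fold lower (log2 fold change -2.05 ± 0.19, adjusted p = 1.92e-04, edgeR) and passed in all 12 alternatives. The log2 fold change of Tax1bp1, an adaptor of A20 and the most abundant of the list, was -0.15 ± 0.08 (SE, adjusted p = 0.398, edgeR). Dusp1 and Zfp36, fast feedback genes named after their values were seen, rose without KO-labelled library 1 and not with it. Dusp1 stood at 19.6, 48.4 and 59.5 CPM in KO-labelled libraries 1 to 3, against 19.3 and 22.7 CPM in WT libraries 1 and 2, so that KO-labelled library 1 lay with WT.

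Of 23 tested NF-kB target genes 1 rose and 0 fell, with a median of 0.12 (2 of them, Nfkbie and Birc3, also stand on an earlier list). Ltb, the lymphotoxin beta chain, rose 1.68-fold, with 38.0, 42.0 and 43.5 CPM in KO-labelled libraries 1 to 3, against 22.3 and 26.7 CPM in WT libraries 1 and 2 (log2 fold change 0.75 ± 0.14, adjusted p = 0.0149, edgeR). The groups did not overlap, but the call of Ltb was lost without KO-labelled library 3 or either WT library (highest adjusted p = 0.304) and under the replicate block (adjusted p = 0.0513). Bcl2a1b, of that list, had 0 counts in both WT libraries, and setting it at its bound, at least 3.21-fold higher from a floor of 3 counts per library, left the median at 0.12. Cd44, the most abundant target, stood at 320 ± 13.2 CPM in KO-labelled libraries and 295 ± 15.5 CPM in WT libraries. Of 17 Toll-like and TNF-family receptor genes 0 passed in edgeR, and 1 had an unadjusted p under 0.05 (median -0.13). That gene, the lymphotoxin beta receptor Ltbr, was called lower by DESeq2 (adjusted p = 0.0333) and limma voom (adjusted p = 0.0240), and was named after its values were seen. It averaged 56.5 ± 1.47 CPM in KO-labelled libraries and 73.5 ± 6.04 CPM in WT libraries. The most abundant receptor, Tnfrsf1a, stood at 158 ± 6.98 CPM in KO-labelled libraries and 160 ± 3.79 CPM in WT libraries.

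**Figure D4:**
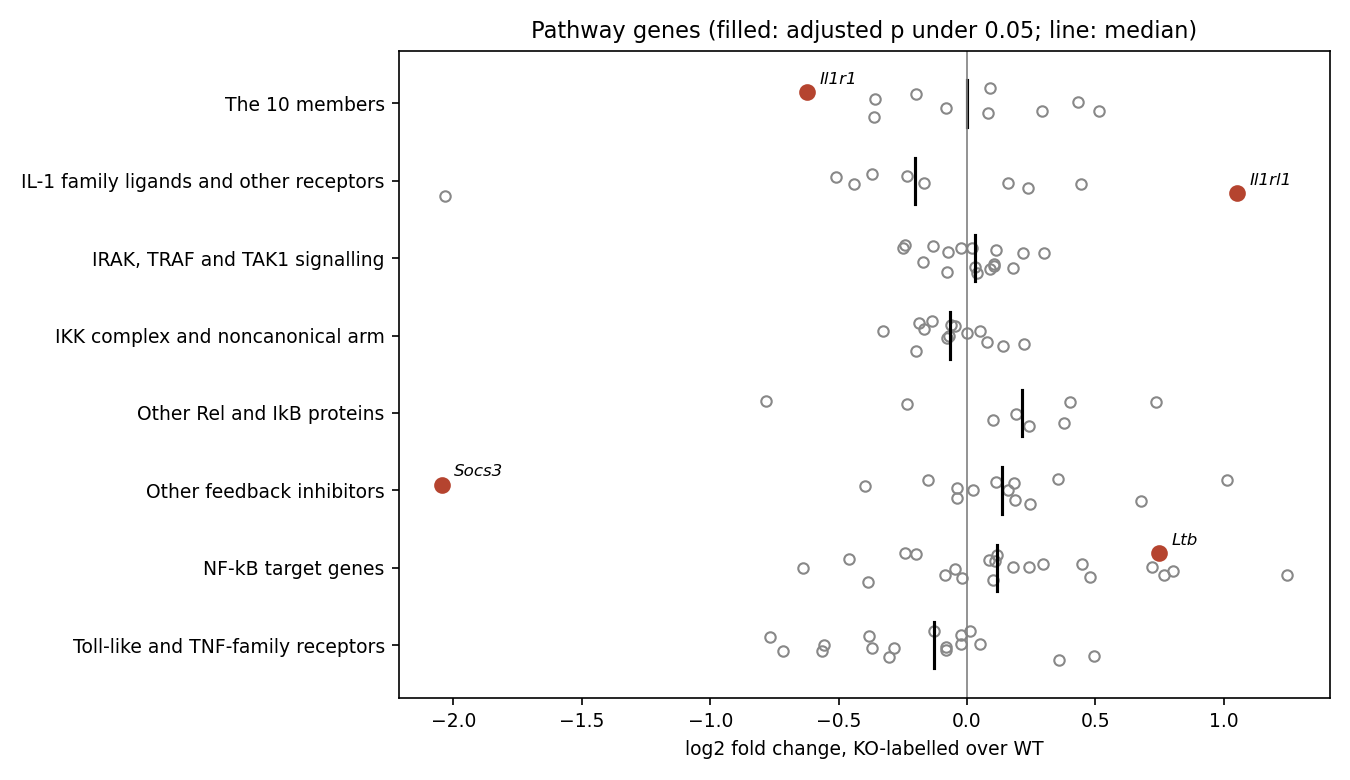
Log2 fold change, KO-labelled over WT, of the 10 genes and of the tested genes of 7 pathway lists; filled points have an adjusted p under 0.05 and vertical lines are medians. Il1r1, Il1rl1, Socs3 and Ltb are filled; Bcl2a1b, at 0 counts in WT, is in the median but not drawn.

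Some markers of more mature myeloid cells fell beside Il1r1, and some erythroid markers rose. The shares to set beside each list here are those of all tested genes. Of these, edgeR called 1.18% lower and 0.79% higher, while DESeq2 called 3.95% and limma voom 4.28% in either direction. Of 10 granulocyte-monocyte progenitor genes 3 fell in edgeR (Csf3r, Ctsg and Prtn3). The summed level of all 10 was 3204 to 4026 CPM in the KO-labelled and 4926 and 4609 CPM in the WT libraries. Mpo, which did not pass (adjusted p = 0.0747, edgeR), made up most of that sum, and without it the sums were 984.1 to 1158 CPM in the KO-labelled and 1483 and 1506 CPM in the WT libraries. Irf8, of the same list, had values in the other direction. It stood at 99.3, 131 and 133 CPM in KO-labelled libraries 1 to 3, against 102 and 99.0 CPM in WT libraries 1 and 2 (log2 fold change 0.27 ± 0.12, adjusted p = 0.355, edgeR). DESeq2 called 0 genes of the list higher and 6 lower, and limma voom called 1 higher and 4 lower. Of 10 mature neutrophil and monocyte genes 2 fell (S100a8 and S100a9), with sums of 377.0 to 411.3 CPM in KO-labelled libraries and 596.4 and 505.0 CPM in WT libraries. DESeq2 and limma voom each called 4 of these 10 genes lower. Of 8 stromal and endothelial genes 2 fell (Pecam1 and Pdgfrb), with sums of 217.0 to 264.9 CPM in KO-labelled libraries and 356.8 and 338.7 CPM in WT libraries. Those 2 genes made up most of the sums. Without overlap between the groups, 1 gene of the list was higher and 3 were lower, beside 16.5% and 16.3% of all tested genes. Kdr had values in the other direction, with 670, 385 and 454 counts in KO-labelled libraries 1 to 3, against 290 and 383 counts in WT libraries 1 and 2. The defining genes Col1a1 and Lepr each had 0 counts in KO-labelled library 1. Of 10 erythroid genes 5 rose (Car1, Car2, Ermap, Klf1 and Slc4a1), beside 0.79% of all tested genes, and the median log2 fold change was 1. Without overlap, 8 of the 10 were higher and 0 lower, beside 16.5% and 16.3% of all tested genes. Counts of Epor and Alas2 overlapped between the groups. Epor had 305, 279 and 342 counts in KO-labelled libraries 1 to 3, against 247 and 378 in WT libraries 1 and 2. For Alas2 these were 123, 79 and 42, against 84 and 35. The erythroid sums were 1051 to 1427 CPM in KO-labelled libraries and 734.7 and 861.6 CPM in WT libraries, and Car2 made up most of them. DESeq2 called 6 erythroid genes higher and limma voom 4. Of 7 T and NK cell genes 1 fell (Klrb1c). In the lists of LSK and stem cells (10 genes), B cells (6), mast cells and basophils (7) and macrophages and dendritic cells (7), 0 passed in edgeR. At an unadjusted p under 0.05 they held 3 (2 higher, 1 lower), 0, 1 (higher) and 2 (higher). Of all tested genes, 13.8% were under it in either direction. DESeq2 called 2 genes higher in the last of these lists and 0 in the others, and limma voom called 0 in all 4. No gene of these lists was at 0 in every library. The part of these cell types in the values of Il1r1 was not tested.

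By the smallest root mean square difference of centred log2 CPM over the 5 libraries, the genes most like Il1r1 were Sh3bp5 (0.0524), the predicted gene Gm28042 (0.0652) and Arid5a (0.0659). Sh3bp5 stood at 23.4, 32.2 and 24.0 CPM in KO-labelled libraries 1 to 3, against 44.2 and 41.8 CPM in WT libraries 1 and 2. Arid5a stood at 53.1, 67.4 and 56.0 CPM in KO-labelled libraries 1 to 3, against 91.4 and 87.3 CPM in WT libraries 1 and 2. KO-labelled library 2 was the highest of its group in both, which follows from choosing these genes by their likeness to Il1r1.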

How the data were processed

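RNA of sorted LSK cells was sequenced in 5 libraries made with a stranded kit, per the labels. The authors deposited 1 table of raw counts per RefSeq transcript, with 33862 rows. Tools named in the submitters' processing notes are STAR, featureCounts and Subread 1.4.5-p1, on mm9 (NCBIM37); how strand and shared reads were handled is not given in the sources used here. Names came from RefSeq for 33485 rows and from GENCODE for 188; 189 matched neither and kept their IDs. The row with the most counts was kept for each gene. A level of 3 counts is 0.076 to 0.1 CPM in these libraries.

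After filterByExpr and TMM scaling, all genes were fitted together with the robust quasi-likelihood test of edgeR 4.0.16 (R 4.3.3), two-sided, at an adjusted p of 0.05; the SE was taken from the fold change and its F statistic. The test was tested on simulated data with 200 changed genes. It recovered 34.3% of those changed 1.5-fold, 64.2% of those changed 2-fold and 74.2% of those changed 4-fold. Of its calls, 3.36% fell on unchanged genes. A gene that did not pass may therefore still differ between the groups. Alternatives were RLE and upper-quartile scaling, no count filter, DESeq2 1.42.0, limma 3.58.1 voom, a replicate block, summed transcripts and each library left out. Lengths came from GENCODE transcripts matched by RefSeq accession, on GRCm38. Named genes were the members, called and most abundant genes of the lists, and the 3 genes most like Il1r1 with at least 10 CPM, with 0.5 CPM added before the logarithm. Members and lists were chosen with earlier results of these data known. The targeted gene is not reported here.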

Additional observations from a re-analysis of the deposited data

How the results depend on the processing

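Of 120 values of the 10 genes under 12 alternatives, 110 kept their side of the threshold, and none changed direction. Il1r1 passed in 7 of 12; its log2 fold change was -0.57 with the replicate block and -0.62 with summed transcripts, where it did not pass, and -0.79 to -0.54 with a library left out. With limma voom Nfkb2 (0.48) and Irak3 (-0.42) passed. With a library left out the values ran from 0.30 to 0.59 for Nfkb2, from 0.33 to 0.62 for Tnfaip3 and from -0.46 to -0.27 for Irak3. Over all genes, the changed, higher and lower counts stood at 287, 115 and 172 with all libraries, 455, 200 and 255 with no count filter, 575, 264 and 311 with DESeq2, 624, 247 and 377 with limma voom, 160, 54 and 106 with the replicate block, and 6 to 675, 2 to 312 and 4 to 363 with a library left out. Of the 10 genes, 3 passed with limma voom, 1 higher and 2 lower; 0 passed, with 0 lower, under the replicate block or with summed transcripts; and 0 to 4 passed, 0 to 2 higher and 0 to 2 lower, with a library left out. Of the pathway lists 3 genes passed, 2 higher and 1 lower, against 5 with DESeq2 or limma voom (3 lower), 2 lower with no count filter, 1 under the replicate block (0 higher), and 1 to 7, 0 to 4 higher and 1 to 3 lower, with a library left out. The cause of these moves was not tested. Fits without a WT library rest on 1 WT sample, whose spread is taken from the KO-labelled libraries.

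The labels do not say whether same-numbered libraries belong together. Their deviations from the group means correlated across genes at 0.043 for number 1 and 0.017 for number 2. The deviations of the 2 WT libraries mirror each other, so KO-labelled library 1 with WT library 2 gave -0.043. These values therefore cannot decide whether same-numbered libraries are paired, and KO-labelled library 3 has no partner. With 2 WT libraries, Relb at under 8 CPM had the widest SE of the 10 genes, 0.25 on the log2 scale.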
